A study of Gallus gallus with 4 samples.

Results

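The cells described here were the barcodes of undamaged chick retinas that lay outside a gate for glia, compared between clodronate+saline and saline. A barcode was kept when it held at least 200 genes and at most 5% of its UMIs (counted molecules) in the mitochondrially encoded protein genes. A kept barcode was then left out as glia when it held at least 10 UMIs of *GLUL* with at least 2 of *RLBP1*, or at least 4 of *FABP9* with at least 1 of *TGFB2*. This left 18538 of the 22339 barcodes of both libraries, out of 41286 in the whole series. Of these, 9445 were from clodronate+saline and 9093 from saline.

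The study had 4 droplet single-cell libraries of dissociated retina from wild-type (WT) leghorn chicks, 1 per condition. In clodronate+saline, eyes received clodronate liposomes at P6 and saline at P10. In saline, they received saline at both ages. A second pair received NMDA, which kills inner retinal neurons, at P10 in place of saline, after liposomes (clodronate+NMDA) or after saline (NMDA). All retinas were collected 24 h after the last injection. The liposomes were injected into the eye itself, so the loss of microglia and a direct action of the liposomes on neurons cannot be told apart. The number of birds in each library was not stated in the sources used here.

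Microglia are the resident phagocytes of the retina, and they take up clodronate liposomes and die from the drug that is released inside them. Interferons are cytokines that cells release when nucleic acids appear in the wrong place. The signal runs through JAK kinases and factors such as STAT2 and the IRFs to a shared set of interferon-stimulated genes, many of which act on viral RNA or on the response itself. The same signal raises class I presentation in most cell types: the transporter TAP1/TAP2 carries peptides into the endoplasmic reticulum, tapasin (TAPBP) holds them beside the class I heavy chain and β2-microglobulin (B2M), and the loaded complex goes to the surface. Chickens carry the heavy chain genes *BF1* and *BF2* beside *TAP1*, *TAP2* and *TAPBP* in the compact B locus on chromosome 16. Resting neurons have little class I.

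Over the kept barcodes, 21382577 UMIs were summed in clodronate+saline and 15951147 in saline, with a median per barcode of 1551 and 1287 UMIs. Sums are given as CPM (counts scaled to a common total of UMIs), and ratios as log2 of clodronate+saline over saline. With 1 library a side there is no replicate check, no test was made, and bracketed 95% intervals cover counting error only. Library, birds and treatment cannot be told apart. The 2 libraries shared 214 barcode sequences, 141 of them among the kept. Among the microglial markers, the genes of complement C1q bore out the label. Its chains *C1QA*, *C1QB* and *C1QC* had 1, 0 and 0 UMIs in clodronate+saline, against 35, 54 and 79 in saline. The 10 microglial markers found summed to 5.47 CPM in clodronate+saline and 29.0 CPM in saline, and 4 of them were at 0 in clodronate+saline, against none in saline. *CD74* alone held 96 of the 117 clodronate+saline UMIs in this sum and 221 of the 462 in saline. *PTPRC*, which encodes CD45, had 10 UMIs against 13 (−0.80 [−2.15, 0.50]), an interval that spans 0.

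The kept barcodes were mainly but not only neurons. Clusters made without any gene that differed by 1.5-fold between the libraries were named from marker lists, and gave bipolar, amacrine, cone, horizontal, ganglion and rod classes. Bipolar cells made up 41.5% of clodronate+saline barcodes and 52.9% of saline barcodes, and amacrine cells 21.9% and 16.4%. Cones were 7.11% and 4.85%, horizontal cells 4.43% and 5.88%, ganglion cells 4.36% and 3.96%, and rods 1.06% and 0.869%. A class of 81 and 48 barcodes had markers of oligodendrocytes and of NIRG cells, a glial type of the inner chick retina. Clusters whose markers were mixed or too few stayed unnamed, 18.8% and 14.5% of barcodes. The names were rebuilt here and doublets were not called.

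Most genes differed little. Of 9650 genes with at least 10 CPM in either library, 92.9% were within 1.5-fold, and the middle of the distribution ran from −0.09 to 0.19 (quartiles) around a median log2 ratio of 0.05. At least 2-fold higher in clodronate+saline were 123 genes, which is 1.27% of those tested, and at least 2-fold lower were 115, or 1.19%. Of the 123, 86 were under 10 CPM in saline and so were tested only because they were high in clodronate+saline. Of the 115, 51 were under 10 CPM in clodronate+saline. Over all 22983 genes with a UMI, without that filter, 50.8% of ratios were above 0.

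**Figure D1:**
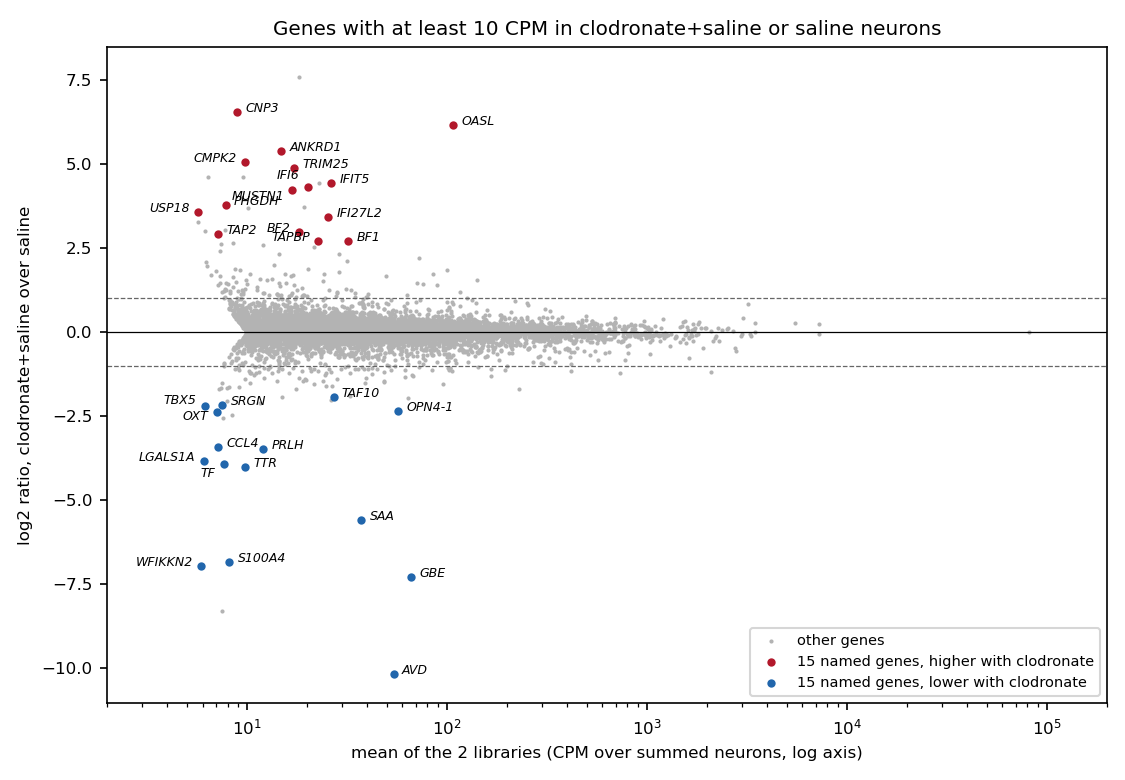
Log2 ratio of clodronate+saline over saline (vertical axis) against the mean level of the 2 libraries (CPM, log axis) for the 9650 genes tested, with the 15 named genes furthest in each direction in colour and dashed lines at 2-fold. Most genes lie near a median of 0.05, while *OASL* (6.17), *AVD* (−10.18) and *GBE* (−7.28) stand far outside. The size of the *AVD* ratio is uncertain [−13.22, −8.32], since it rests on 2 UMIs in clodronate+saline.

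The interferon-stimulated genes were the clearest group on the higher side. *OASL*, which carries the fold of the 2′-5′-oligoadenylate synthetases that sense double-stranded RNA, had 4529 UMIs (212 CPM) in clodronate+saline and 47 (2.95 CPM) in saline, a log2 ratio of 6.17 [5.75, 6.61]. The gene lies on chromosome 12, bases 3411598 to 3413627 of GRCg7b. *CMPK2*, a mitochondrial nucleotide kinase, had 407 UMIs in clodronate+saline against 9 in saline (5.08). *TRIM25*, the ubiquitin ligase that activates the RNA sensor RIG-I in mammals, had 714 against 18 (4.89). These 3 genes were close to absent from saline barcodes.

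*IFIT5*, which binds the 5′ end of foreign RNA, had 1083 UMIs (50.6 CPM) in clodronate+saline and 37 (2.32 CPM) in saline, a ratio of 4.45. *IFI6*, a small interferon-induced membrane protein, had 825 against 31 (4.31), and its relative *IFI27L2* had 996 against 69 (3.43). *USP18*, a protease that removes ISG15 from proteins and damps interferon receptor signalling in mammals, had 226 against 14 (3.59). Part of the saline signal came from few barcodes: 30 of the 47 *OASL* UMIs and 26 of the 31 *IFI6* UMIs in saline were in a single unnamed cluster of 133 saline barcodes that carried markers of microglia, erythrocytes and glia.

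The factors that carry the signal were higher too. *IRF1* was at 14.6 CPM in clodronate+saline and 2.32 CPM in saline (log2 ratio 2.66), and *IRF7* at 13.7 and 3.76 CPM (1.87). *IRF8*, which is also a factor of macrophages, was at 35.6 and 12.3 CPM (1.53). *STAT2* was at 25.02 and 9.53 CPM (1.39). All of these ratios were below those of the 7 effector genes above.

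Of 45 interferon-stimulated genes listed, 34 were found and 19 were tested, with 12 at least 2-fold higher, none lower, and a median log2 ratio of 1.53. Of the 12, 11 had under 10 CPM in saline, so the filter favoured them. Over all 34, with no filter, 30 were above 0 and the median was 1.46. Among the 7 that had 10 CPM in saline, only *IRF8* was 2-fold higher. Most, but not all, of the 15 members outside the filter went the same way. Among them *ZC3HAV1*, which binds viral RNA, had 194 UMIs in clodronate+saline against 21 in saline (2.78). *TLR3*, a receptor of double-stranded RNA, had 84 and 9 (2.80), and *PARP12* had 149 and 22 (2.34), all above the median of 1.46. *RSAD2*, the antiviral enzyme viperin, had 78 and 31 UMIs (0.91). *SOCS3*, a feedback inhibitor of JAK signalling, was at 7.62 and 11.7 CPM (−0.62), and *ADAR*, an enzyme that edits double-stranded RNA, had a ratio of 0.38. *IFI35* was at 19.7 and 9.78 CPM (1.01), *IFITM5*, of the family that blocks viral entry, at 50.3 and 25.6 CPM (0.97), and *LY6E*, a surface protein, at 181 and 98.6 CPM (0.87). The microglial markers were lower in clodronate+saline while this list was higher.

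Class I presentation genes formed the other higher group. *BF1*, a class I heavy chain (chromosome 16, bases 2213458 to 2216245 of GRCg7b), had 1193 UMIs (55.8 CPM) in clodronate+saline and 135 (8.46 CPM) in saline, a log2 ratio of 2.72 [2.46, 2.99]. *BF2* (bases 2226703 to 2229465) had 694 against 66 (2.97). Reads of such close relatives can be divided between them by the counting, so the 2 values are uncertain apart, although both point the same way. *B2M*, the light chain that every class I molecule needs, was at 156 CPM in clodronate+saline and 43.0 CPM in saline (1.86 [1.74, 1.98]).

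The peptide-loading genes of the same locus followed. *TAP2* (bases 2221658 to 2225172) had 272 UMIs in clodronate+saline against 27 in saline (2.91), and *TAP1* was at 23.99 and 4.83 CPM (2.31). *TAPBP* (bases 2188266 to 2191800) had 841 against 96 UMIs (2.71). *ERAP1*, an aminopeptidase that trims peptides in the endoplasmic reticulum, lies on chromosome Z, away from the locus, and was at 14.7 and 5.02 CPM (1.55). The general chaperones that class I shares with other proteins were level between the libraries: the ratio was −0.09 for *CALR*, 0.07 for *PDIA3* and −0.01 for *CANX*. Of 17 class I genes listed, 12 were found and 10 tested, with 7 at least 2-fold higher and none lower (median 2.09), of which 6 were under 10 CPM in saline. Over the 12 without the filter, 9 were above 0 and the median was 1.78. On chromosome 16 as a whole, 12 genes were tested, and the 5 that were 2-fold higher were *BF1*, *BF2*, *TAP1*, *TAP2* and *TAPBP*. Of all genes tested, 1.27% were 2-fold higher. These 5 are members of the same list and were all under 10 CPM in saline, so they are not separate support.

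**Figure D2:**
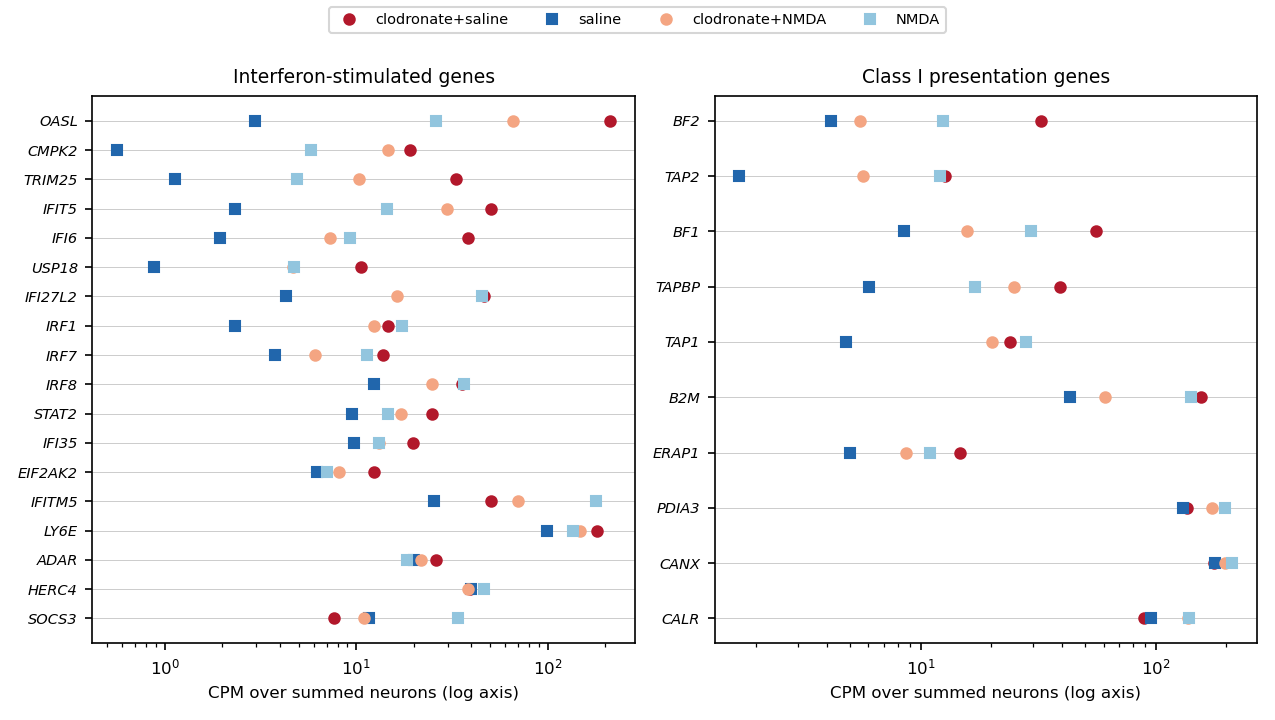
Level (CPM, log axis) of 18 of the 19 tested interferon-stimulated genes (left) and all 10 tested class I presentation genes (right) in the 4 libraries, clodronate+saline and clodronate+NMDA as circles and saline and NMDA as squares. *OASL* was at 212 CPM in clodronate+saline and 2.95 in saline, and at 65.7 in clodronate+NMDA and 26.2 in NMDA, and saline is the lowest of the 4 libraries for *B2M* (43.0 CPM) and *BF1* (8.46 CPM).

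The 12 interferon-stimulated genes above 2-fold were spread over many clodronate+saline barcodes. They were chosen for being higher in this library, so the direction of the shares below was fixed by that choice and they only describe where the UMIs lay. At least 1 UMI of the 12 was found in 30.9% of clodronate+saline barcodes and 7.29% of saline barcodes. In ganglion cells these shares were 68.0% [63.2, 72.5] and 20.8% [16.7, 25.4], in amacrine cells 45.2% and 10.6%, in bipolar cells 21.6% and 4.76%, and in the small oligodendrocyte and NIRG cell class (81 and 48 barcodes) 54.3% and 25%. Depth differs by class and library, with median UMIs in ganglion cells of 7661 in clodronate+saline and 6159 in saline, and in bipolar cells of 1373 and 1195. With every barcode thinned to 500 UMIs the shares were 23.8% and 1.67% in ganglion cells, 18.5% and 1.88% in amacrine cells, and 8.58% and 1.91% in bipolar cells.

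Such shares can hold RNA that came from other cells, and how much was not estimated here. *GLUL*, an enzyme of glia that neurons should lack, was found in 34.5% of ganglion barcodes of clodronate+saline and 45.0% of those of saline, and in 21.9% and 34.8% of bipolar barcodes. After thinning, *GLUL* was in 3.16% and 3.06% of ganglion barcodes, 6.19% and 11.4% of amacrine barcodes and 9.63% and 17.3% of bipolar barcodes. It is an abundant transcript of the retina, and the gate had used it. In clodronate+saline bipolar cells the thinned share of the 12 genes (8.58%) was below that of *GLUL*, and no expression is read from it. The same held for horizontal cells (7.42% against 7.66% for *GLUL*), cones (6.99% against 8.63%) and rods (6% against 21%) of clodronate+saline.

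By level, *OASL* was at 327 CPM in clodronate+saline amacrine cells against 1.02 CPM in saline amacrine cells, and at 212 against 0.437 CPM in ganglion cells. It was at 79.6 against 0.668 CPM in bipolar cells, 60.0 against 4.85 CPM in horizontal cells and 48.1 against 1.56 CPM in cones. In rods it had 7 UMIs against 0. Per 1000 barcodes, *OASL* ran from 70.0 UMIs in rods to 1641 in ganglion cells of clodronate+saline (saline, 0 to 5.61). Horizontal cells had 81.3, cones 81.8 and bipolar cells 115. The part of RNA from other cells in the levels of these classes and of rods was not tested.

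*IFI27L2* had most of its clodronate+saline UMIs in ganglion cells, 651 of 996, against 10 of 69 in saline. It was at 205 CPM in clodronate+saline ganglion cells and 4.37 CPM in saline ganglion cells (log2 ratio 5.55). In bipolar cells it had 63 UMIs in clodronate+saline against 6 in saline (3.47). *B2M* had a ratio of 3.71 [3.26, 4.20] in ganglion cells (241 against 18.4 CPM), 2.197 in amacrine cells (183 against 39.9 CPM) and 0.99 in bipolar cells (66.2 against 33.2 CPM). In cones it was at 49.0 CPM in clodronate+saline and 40.6 CPM in saline, 0.27 [−0.42, 1.001], an interval that spans 0. *TAPBP* was at 124 against 8.74 CPM in ganglion cells, while horizontal cells had 33.6 against 27.5 CPM (0.29 [−0.74, 1.32]).

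As lists, the 19 interferon-stimulated genes had a median of 2.16 in ganglion cells, 1.85 in amacrine cells, 1.38 in bipolar cells, 0.54 in horizontal cells and 0.44 in cones. The 10 class I genes had 3.60, 2.21, 1.39, 0.57 and 0.66 in the same order. Of the 19, 12 reached 10 CPM only in clodronate+saline, as did 6 of the 10, so the filter favoured medians above 0. In rods, with 204252 UMIs in clodronate+saline and 140226 in saline in all, the medians were −0.54 for the interferon-stimulated genes, with 7 of 19 above 0, and −0.46 for the class I genes, with 2 of 10 above 0, where a gene at 0 in either library had counts below 3 set to a floor of 3, so that a gene with few UMIs falls at −0.54. Of all genes tested within a class, 2.09% were at least 2-fold higher in ganglion cells and 1.1% lower, 1.15% and 1.07% in amacrine cells, 1.71% and 1.57% in bipolar cells, 3.84% and 4.22% in horizontal cells, and 9.55% and 3.02% in cones. The cell classes with the higher list medians were not those with the most 2-fold genes, and the order of the classes was not tested. The glia left out by the gate had *OASL* too, with 361 CPM in clodronate+saline glia and 2.46 CPM in saline glia.

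**Figure D3:**
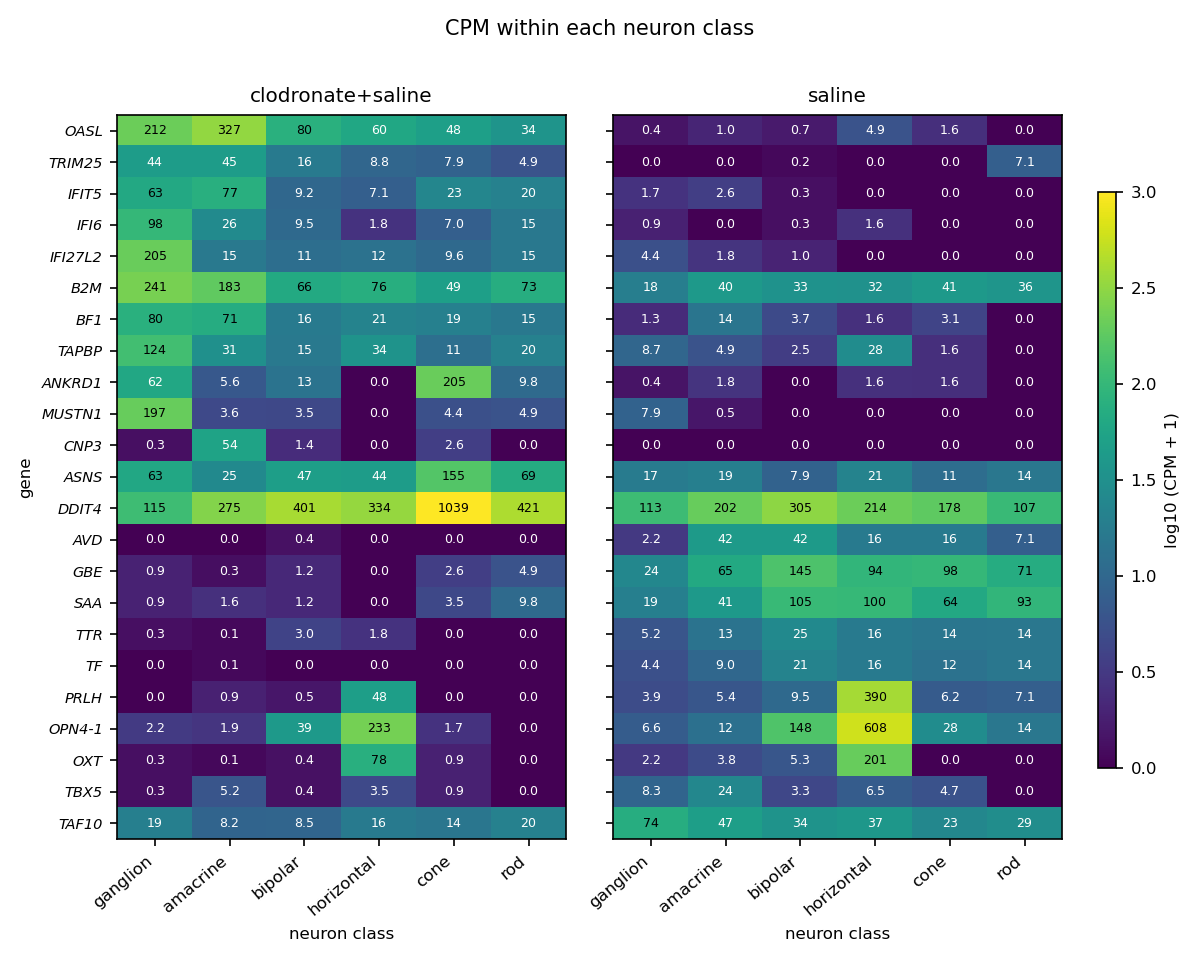
CPM of 23 genes (rows) in 6 neuron classes (columns) of clodronate+saline (left) and saline (right), with colour on a log10 (CPM + 1) scale and the CPM printed in each cell. *OASL* stands at 212 and 327 CPM in ganglion and amacrine cells of clodronate+saline against 0.437 and 1.02 CPM in saline, *ANKRD1* at 205 CPM in cones against 1.56 CPM, and *OPN4-1* at 233 CPM in horizontal cells against 608 CPM.

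Some other genes that were far higher had their highest levels in 1 or 2 classes. *ANKRD1*, an ankyrin repeat protein of muscle that stressed cells of many kinds induce (chromosome 6, bases 20401371 to 20410130), had 618 UMIs in clodronate+saline against 11 in saline (5.39). It was at 205 CPM in clodronate+saline cones against 1.56 CPM in saline cones, and at 61.9 against 0.437 CPM in ganglion cells. In bipolar cells it had 73 UMIs in clodronate+saline against 0 in saline. *MUSTN1*, a small protein of muscle and skeleton, had 685 UMIs in clodronate+saline against 27 in saline (4.24), and was a ganglion cell gene in both libraries, at 197 and 7.87 CPM. The clodronate+saline UMIs of ganglion cells were in 37 of 412 barcodes, with up to 111 in 1 barcode. *MUSTN1* was also among the 10 leading genes of the ganglion cell cluster, whose clustering did not use it.

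*CNP3*, a C-type natriuretic peptide precursor (chromosome 21, bases 5560179 to 5561966), had 381 clodronate+saline UMIs, while the saline library had 0, which against a floor of 3 counts in the saline library is at least 94.7-fold higher. Its UMIs were in 30 barcodes, 0.32% of the clodronate+saline barcodes, with up to 101 in 1 barcode, and 365 were in amacrine cells. The value therefore rests on few cells of a rare kind. *TAC1*, the precursor of substance P, was at 211 CPM in clodronate+saline and 71.7 CPM in saline (1.56), with 380 against 148 CPM in amacrine cells and 518 against 181 CPM in ganglion cells. In rods *TAC1* had 38 UMIs in clodronate+saline against 1 in saline.

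Genes of amino acid supply were higher in cones and, for some of them, in other classes. *ASNS*, asparagine synthetase and a target of the factor ATF4, was at 155 CPM in clodronate+saline cones against 10.9 CPM in saline cones (3.82 [2.75, 5.16]), 62.5 against 16.6 CPM in ganglion cells (1.91), 68.5 against 14.3 CPM in rods (2.26 [0.14, 5.45]), 46.6 against 7.85 CPM in bipolar cells and 25.4 against 18.7 CPM in amacrine cells. *CHAC1*, which degrades glutathione, was at 78.7 against 3.12 CPM in cones (4.66), and *DDIT4*, an inhibitor of mTORC1, at 1039 against 178 CPM in cones (2.54) and 421 against 107 CPM in rods (1.98). *ALDH18A1*, an enzyme of proline synthesis, was at 193 against 12.5 CPM in cones. *CEBPB*, a factor that works with ATF4, had 52 UMIs in clodronate+saline cones and 0 in saline cones, with 16 and 2 in rods. *MYC* had 80 and 0 in cones. *ALDH18A1* and *MYC* were named after their cone values were seen, and 9.55% of all genes tested in cones were 2-fold higher. In rods the amacrine marker *PAX6* had 84 UMIs in clodronate+saline against 13 in saline. The part of RNA from other cells in the rod values was not tested.

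*PHGDH*, the first enzyme of serine synthesis, was higher mainly in ganglion cells instead (49.3 against 1.75 CPM), with 312 against 17 UMIs over all barcodes (3.78). Of the 16 tested genes of endoplasmic reticulum stress and the amino acid response, 5 were 2-fold higher over all barcodes: *PHGDH*, *ASNS*, *CEBPB*, *PSAT1* and *CHAC1*. None was 2-fold lower, and *ATF4* itself, which is mainly regulated in translation, had a ratio of 0.21. Of the 5, 4 had under 10 CPM in saline. The list's median was 1.09 in cones and between 0.14 and 0.42 in the other neuron classes.

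Cones also had lower genes. *THRB*, the thyroid hormone receptor that sets red-sensitive cone identity, was at 72.6 CPM in clodronate+saline cones and 478 CPM in saline cones (−2.72 [−3.09, −2.36]), although *THRB* was among the cone markers, and *PCP4L1*, a calmodulin-binding protein, was at 69.9 and 579 CPM (−3.05). Both were singled out after their values were seen. The 12 tested cone phototransduction genes had a median of −0.68 over all barcodes, where cones were the larger share in clodronate+saline, and −0.74 within cones, with *ARR3*, cone arrestin, the only one above 0 over all barcodes (0.32). Cone types were not separated here, so a different mixture of cones and a different level per cone cannot be told apart.

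**Figure D4:**
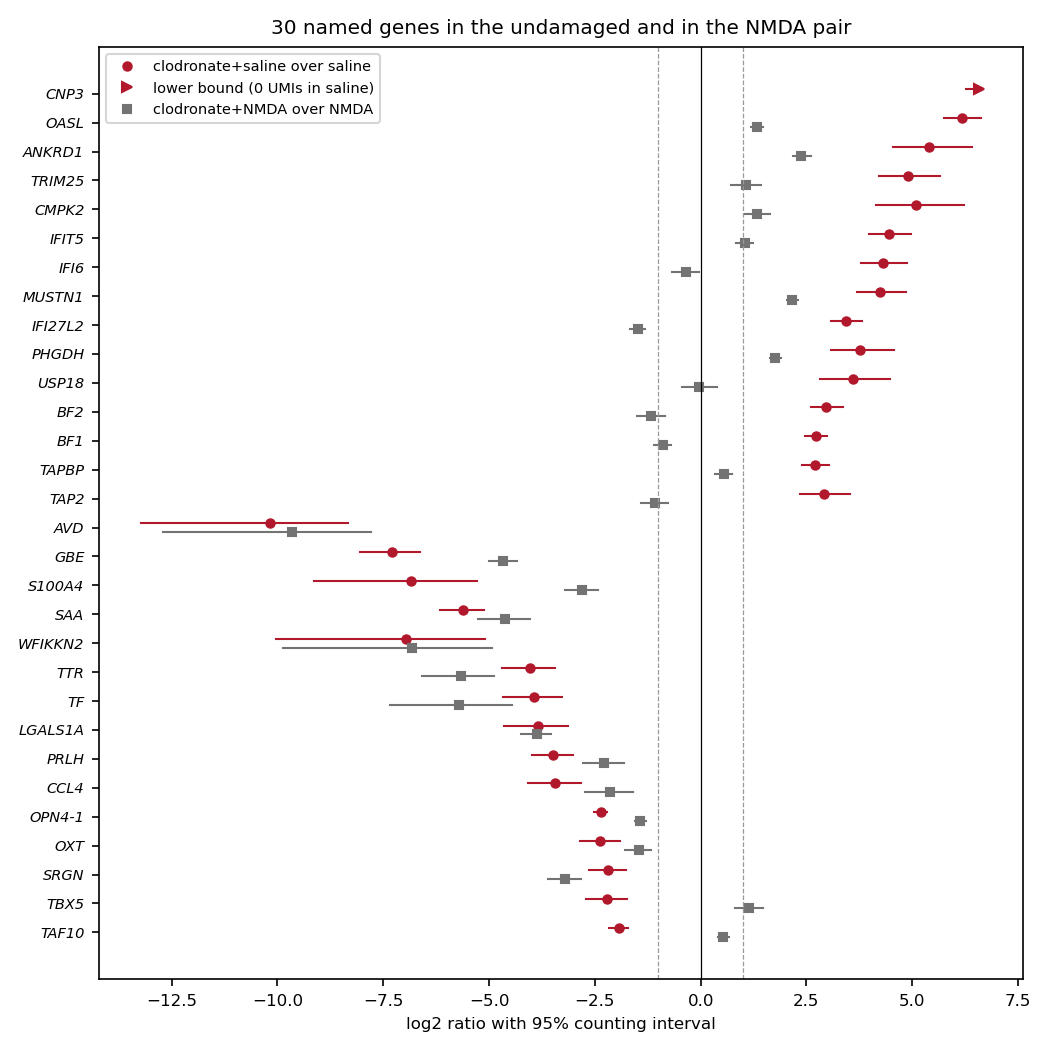
Log2 ratio with its 95% counting interval for the 30 named genes (rows), clodronate+saline over saline as red circles and clodronate+NMDA over NMDA as grey squares, with dashed lines at 2-fold and an arrow for the lower bound of *CNP3*. The 15 lower genes lie on the same side in both pairs except *TBX5* (1.13 in the NMDA pair) and *TAF10* (0.54). Of the 15 higher genes, 9 count as the same side, *CNP3* only through the floor of 3 counts (0 and 2 UMIs in the NMDA pair). On opposite sides lie *IFI27L2* (3.43 and −1.49), *BF2* (2.97 and −1.17), *TAP2* (2.91 and −1.09), *BF1* (2.72 and −0.90), *IFI6* (4.31 and −0.35) and *USP18* (3.59 and −0.03).

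The lower genes with the greatest differences included *AVD*, *GBE*, *S100A4*, *WFIKKN2* and *SAA*. *AVD*, avidin, the biotin-binding protein of egg white that chicken macrophages also release (chromosome Z, bases 9717627 to 9718812), had 2 UMIs in clodronate+saline against 1726 in saline, a log2 ratio of −10.18 [−13.22, −8.32]. *GBE* had 18 against 2094 (−7.28), in 0.19% of clodronate+saline barcodes and 14.1% of saline barcodes. *SAA*, the acute phase protein serum amyloid A, had 32 against 1168 (−5.61), in 0.32% and 10.1% of barcodes.

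These genes fell into 2 patterns by where their saline UMIs lay. For *AVD*, 1218 of the 1726 saline UMIs (70.6%) were in the mixed cluster with microglial and erythrocyte markers, which held 42 barcodes of clodronate+saline and 133 of saline. In the named neuron classes, *AVD* had 2 UMIs in clodronate+saline against 445 in saline. The same cluster held 67.1% of the saline UMIs of *S100A4*, a calcium-binding protein (3 against 258 UMIs over all barcodes, −6.85), 76.9% of those of *LGALS1A*, a galectin (17 against 182, −3.84), and 66.0% of those of *CCL4*, a chemokine of macrophages (26 against 209, −3.43). It also held 69.6% of the saline UMIs of *C1QC*. The part of microglia in these ratios was not tested.

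The cluster held 7.28% of the saline UMIs of *SAA*. Of those of *GBE* it held 27.1%, in 133 of 9093 saline barcodes. *TTR*, the carrier of thyroxine and retinol-binding protein, which pigmented epithelium makes, had 24 against 293 UMIs (−4.03). *TF*, transferrin, had 20 against 229 (−3.94), and *WFIKKN2*, a secreted binder of GDF8 and GDF11, 2 against 187 (−6.97). *SRGN*, the proteoglycan serglycin of immune cell granules, had 58 against 197 (−2.19).

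Per barcode, the saline UMIs of *GBE*, *SAA*, *TTR* and *TF* varied less than 2-fold over the neuron classes. In saline, *GBE* had 108 to 181 UMIs per 1000 barcodes over the 6 classes, *SAA* 92.97 to 165, *TTR* 18.7 to 34.2 and *TF* 18.1 to 27.8, although the median depth of ganglion cells (6159 UMIs) was far above that of horizontal cells (1106 UMIs). *SRGN* varied more, from 5.61 in horizontal to 24.5 in bipolar cells, and so did *WFIKKN2*, from 9.35 in horizontal cells to 25.3 in rods. In clodronate+saline, *GBE* had 0 to 10 and *SAA* 0 to 20 UMIs per 1000 barcodes. Where these UMIs came from was not tested. The haemoglobin genes, which should be absent from neurons, had lower sums. *HBA1* had 1487 UMIs in clodronate+saline against 2045 in saline and *HBAD* 294 against 824. The mixed cluster held 96.5% and 97.2% of these for *HBA1* and 95.9% and 98.1% for *HBAD*. These sums rest on few barcodes: in saline, 1 barcode held 1481 of the *HBA1* UMIs and 1 held 690 of the *HBAD* UMIs. The highest in clodronate+saline were 635 and 169. In the named neuron classes, *HBA1* had 44 UMIs in clodronate+saline against 51 in saline, and *HBAD* 11 against 15. The pigmented cell markers *RPE65*, *TYRP1* and *DCT* had 1 UMI each in clodronate+saline against 99, 52 and 50 in saline.

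Besides the cone genes above, genes on the lower side included some of horizontal, amacrine and bipolar cells. *PRLH*, prolactin-releasing hormone, had 42 UMIs in clodronate+saline against 352 in saline (−3.49 [−3.99, −3.03]), and in horizontal cells it was at 47.7 against 390 CPM. *OXT*, the mesotocin precursor of birds, had 49 against 189 (−2.37) and was at 77.7 against 201 CPM in horizontal cells, where it was also 1 of the markers that named the class. *OPN4-1*, a melanopsin, had 396 against 1522 UMIs (−2.37 [−2.53, −2.21]). It was at 233 against 608 CPM in horizontal cells (−1.38) and at 39.4 against 148 CPM in bipolar cells (−1.91), so it was lower in both of the classes that held most of it.

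*TBX5*, a factor of the dorsal retina, had 47 against 162 UMIs (−2.21) and was at 5.198 CPM in clodronate+saline amacrine cells and 23.5 CPM in saline amacrine cells. *TAF10*, a subunit of the general transcription complexes TFIID and SAGA, had 240 against 686 UMIs (−1.94), and was lower in amacrine (−2.53), bipolar (−1.99), ganglion (−1.97) and horizontal cells (−1.23 [−2.52, −0.06]). In cones (−0.74 [−1.85, 0.38]) and in rods, with 4 UMIs each, its interval spanned 0. *NR2F2*, a nuclear receptor chosen after its values were seen, was at 109 CPM in clodronate+saline and 352 CPM in saline (−1.69) and was lower in all 6 classes too, from −0.78 to −2.21.

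Of 11 neuropeptide genes tested, 2 were 2-fold higher and 3 lower, so the group had no shared direction (median −0.29). Besides *TAC1*, the higher one was *CCK*, cholecystokinin, at 46.9 CPM in clodronate+saline and 22.8 CPM in saline (1.04). *VIP*, the vasoactive intestinal peptide of a set of amacrine cells, was at 34.9 and 88.0 CPM (−1.33), and at 102 and 336 CPM within amacrine cells. *PENK*, which gives enkephalins, was at 440 and 1029 CPM (−1.23), and *NTS*, neurotensin, at 256 and 576 CPM (−1.17), both mostly in unnamed clusters, where *PENK* had 6695 of its 9406 clodronate+saline UMIs and 13563 of its 16416 saline UMIs. Over the named neuron classes alone the ratios were −0.44 for *PENK* and −0.28 for *NTS*, short of 2-fold. That sum leaves out the unnamed cluster that had *NTS* and *PENK* among its leading genes. With clusters taken at the same shares in both libraries, the ratios were −1.48 for *PENK* and −1.46 for *NTS*. Within amacrine cells *PENK* was at 247 and 434 CPM. The cluster with *VIP* among its leading genes held 150 clodronate+saline and 85 saline barcodes, and the one with *NTS* and *PENK* 132 and 95. With clusters taken at the same shares *VIP* had −1.73. How many cells of each peptide type a library holds and how much each cell makes cannot be separated in the sums over all barcodes.

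Glial RNA outside the gate was mixed in direction over all barcodes. *GLUL*, glutamine synthetase of Müller glia (MG), was at 391 CPM in clodronate+saline and 434 CPM in saline (−0.15), *RLBP1*, the retinaldehyde-binding protein of MG, at 20.4 and 57.9 CPM (−1.51), and *FABP9*, a fatty acid binding protein of glia, at 120 and 25.9 CPM (2.21). Of the 2563 clodronate+saline UMIs of *FABP9*, 2189 were in the 81 barcodes of the oligodendrocyte and NIRG cell class (6186 against 1119 CPM). Of the 16 MG genes tested, 1 was 2-fold higher, *FABP9*, and 3 were lower, *WIF1* and *SFRP1*, which bind Wnt ligands, and *RLBP1*. Within each neuron class the median of the 16 was below 0, from −0.47 in ganglion cells to −0.85 in cones. An unnamed cluster with MG and rod markers had 238 barcodes in clodronate+saline and 101 in saline. It held 5243 of the 8356 clodronate+saline UMIs of *GLUL* and 1989 of the 6920 in saline. The named neuron classes held 2273 and 4029. The gate itself used *GLUL*, *RLBP1* and *FABP9*, so their levels here are what it left.

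Metabolic genes differed by little. Of the 18 tested glycolysis genes, 16 were above 0 with a median of 0.23, where 59.6% of all genes tested were above 0, and *LDHA*, the muscle-type lactate dehydrogenase subunit, stood out at 4096 CPM in clodronate+saline and 2307 CPM in saline (0.83), while its partner *LDHB* had −0.53. *LDHA* was higher in all 6 neuron classes, by 0.54 to 1.39. Of the 17 cholesterol synthesis and uptake genes, 2 were above 0, the median was −0.36, and 1 was 2-fold lower, *HMGCS1*, at 24.7 and 52.7 CPM (−1.09), an early enzyme of the pathway. Over the named neuron classes alone *HMGCS1* had −0.80, short of 2-fold, and in the oligodendrocyte and NIRG cell class, where the list's median was −1.82, it had 22 UMIs in clodronate+saline against 152 in saline (−3.47). Rods went the other way, with 14 of the 17 cholesterol genes above 0 and a median of 0.87. In clodronate+NMDA over NMDA, the 20 cholesterol genes tested had a median of 0.58, with 2 at least 2-fold higher. The 51 oxidative phosphorylation genes had a median of −0.02 and the 28 proteasome genes 0.07, close to the 0.05 of all genes. The 63 ribosomal protein genes had −0.10 with only 3 above 0, a small shift that most of them shared. The lower quartile of all genes was −0.09.

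Over all barcodes, the medians of the heat shock and immediate early genes were below 0. The 24 heat shock genes had a median of −0.11, with none 2-fold apart and *HSPB9* (−0.90) and *HSPA2* (−0.78) lowest. The 12 immediate early genes, which neurons switch on within minutes of activity, had −0.12, with *FOS* at −0.62, although in rods their median was 1.08, with 10 of 12 above 0. Among the leading higher genes of rods were some that mark or lead amacrine clusters. *PAX6* had 84 UMIs in clodronate+saline rods against 13 in saline rods, *TPH1* 46 against 3 and *TAC1* 38 against 1. The part of RNA from other cells in the rod values was not tested. Of the 18 metal and oxidative stress genes, 1 was 2-fold higher, the metallothionein *MT4*, at 111 CPM in clodronate+saline and 40.9 CPM in saline (1.44). Of the 12 hypoxia-responsive genes, *EGLN3*, a sensor of oxygen, was 2-fold higher, at 44.1 and 18.3 CPM (1.27).

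The transmission machinery was nearly level. The median was −0.01 for 31 synaptic vesicle genes, 0.06 for 23 glutamate receptor genes, −0.00 for 23 GABA and glycine genes and −0.06 for 31 voltage-gated channel genes, and none of these genes was 2-fold apart. Among 19 clock genes *PER2*, a repressor in the clock, had the lowest ratio (−0.83), with none 2-fold apart. Of the 10 tested genes listed as signals from neurons to microglia, 1 was 2-fold lower, *CCL4*. It is also a chemokine of macrophages, and the mixed cluster held 66.0% of its saline UMIs, so its ratio is not read as a change in neurons. Rod phototransduction genes had a median of −0.18.

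**Figure D5:**
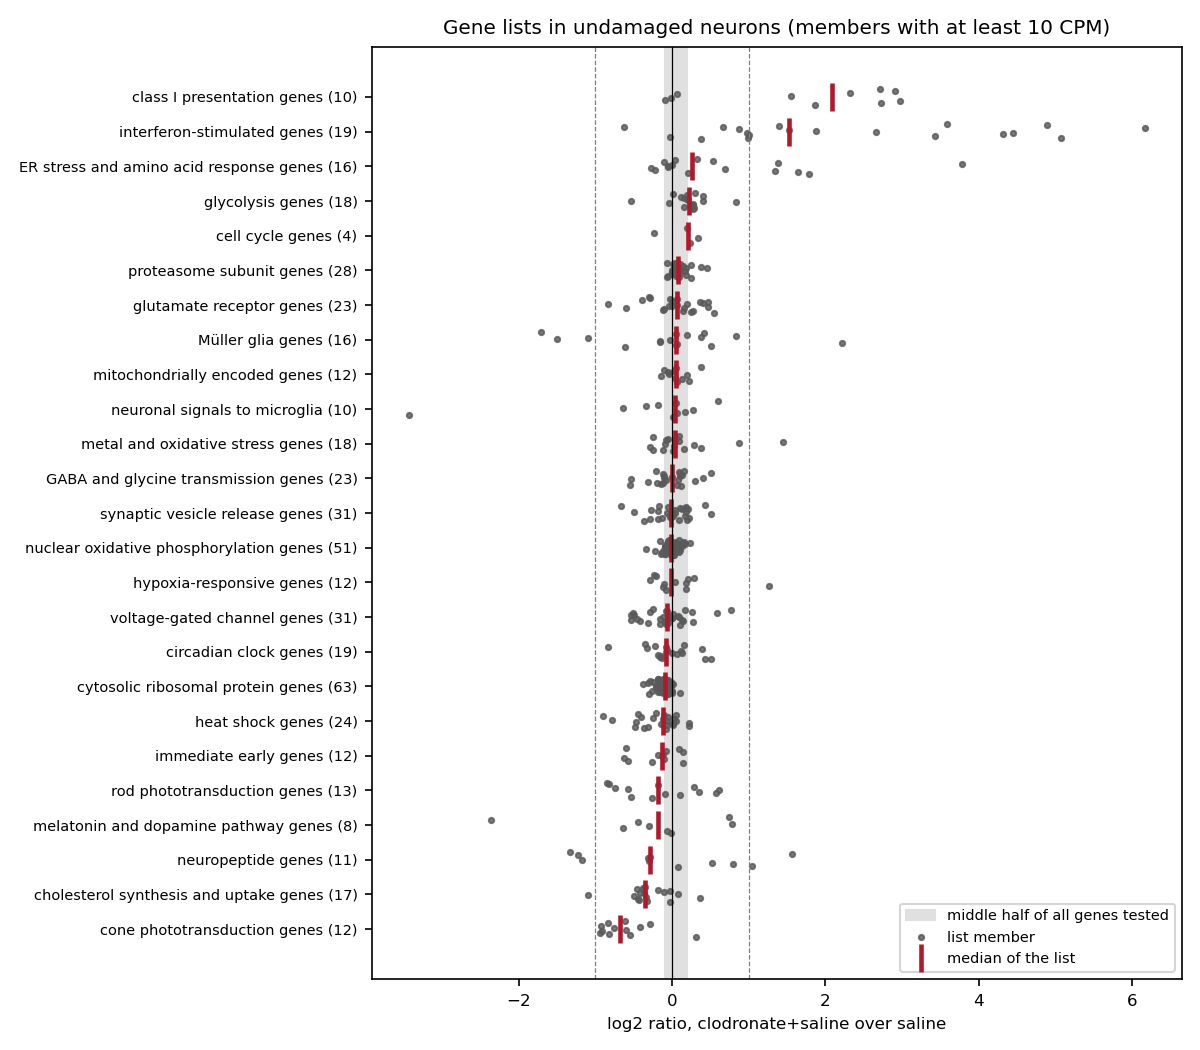
Log2 ratio of clodronate+saline over saline for every tested member (points) of 25 gene lists (rows, number tested in parentheses), with the median of each list as a red bar, the quartiles of all genes tested as a grey band and dashed lines at 2-fold. Class I presentation genes (median 2.09) and interferon-stimulated genes (1.53) lie to the right, and cone phototransduction genes (−0.68) to the left of the band.

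In NMDA-damaged retinas, the 2 higher groups had other ratios, given side by side since the difference between the pairs was not tested. Of 9670 genes tested there, 96 (0.993%) were at least 2-fold higher in clodronate+NMDA than in NMDA and 318 (3.29%) lower. The 16 interferon-stimulated genes tested in this pair had 4 2-fold higher, 3 lower and a median of −0.03, and the 10 class I genes had none higher, 3 lower and a median of −0.41. Summed over all 34 interferon-stimulated genes found, the level was 970 CPM in clodronate+saline and 323 CPM in saline, and 613 CPM in clodronate+NMDA and 716 CPM in NMDA. *B2M* was at 61.0 CPM in clodronate+NMDA and 141 CPM in NMDA. *OASL*, at 65.7 and 26.2 CPM (1.33), kept its direction, as did *ANKRD1* (2.38), *MUSTN1* (2.17) and *PHGDH* (1.77). Of the 15 named higher genes, 9 kept their direction, *CNP3* only through the floor, and 7 were 2-fold higher here too. The others went the other way, 3 of them by at least 2-fold.

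Genes lower in the undamaged pair were mostly lower in the NMDA pair, which shares no library with it. Of the 115, 99 (86.1%) were below 0 there and 42 (36.5%) 2-fold lower, where 51.9% and 2.44% of the genes tested in the undamaged pair were. Of the 123 higher genes, 76 (61.8%) were above 0 there and 26 (21.1%) 2-fold higher, against 48.1% and 0.839%, and 16 were 2-fold lower. *AVD* had 2 UMIs in clodronate+NMDA and 1620 in NMDA, and *SAA* 25 and 618. Microglial markers were at 4.57 CPM in clodronate+NMDA and 24.2 CPM in NMDA, and *HBA1* had 125 and 41042 UMIs, a far larger gap than in the undamaged pair, and their part in the shared direction was not tested.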

How the data were processed

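Droplet libraries of chick retina, 1 per condition, were analysed from the count matrices deposited by the authors, which hold raw counts, that is UMIs per gene and cell barcode, neither normalized nor corrected. Per the labels and file headers they were made with Cell Ranger 7.0.1 on GRCg7b. The annotation release is not given in the sources used here, and the study's methods name another build. Counts of the same symbol were added. Symbols missing from the files were sought as RefSeq synonyms (GRCg7b), which placed 20. Of the 9650 genes tested, 8217 had a symbol and 8015 were placed on a chromosome.

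Totals were 25131894 UMIs over 11434 barcodes in clodronate+saline and 20614413 over 10905 in saline. The filters passed 9906 and 9978 barcodes, and the glia gate then took out 461 and 885. Summed counts were scaled to CPM over all UMIs of the kept barcodes. Ratios have exact conditional binomial 95% intervals, shares exact Clopper-Pearson ones. Where a gene was at 0 in either library, counts below 3 were set to a floor of 3 in both. The design could give no test, so "2-fold" is a rule of size.

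For classes, 2000 variable genes without any that differed 1.5-fold or more gave 30 components, 20 neighbours and Leiden clusters at resolution 0.8, named with at least 3 raised markers and left unnamed when the leading markers were mixed. The named genes were, per direction, the 15 with a symbol and at least 10 CPM whose interval bound nearest 0 was furthest from 0, mitochondrial genes left out, up to 4 members of each list and *C1QA*, *C1QB*, *C1QC*, *GLUL* and *RLBP1*. Further genes within classes were named after their values were seen. The gene lists, the filter and the members were chosen with earlier results of these data known.

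Alternatives were TMM (edgeR 4.0.16, for scaling factors only) and median-of-ratios scaling, other minimum levels and folds, a mean over barcodes, an upper limit of 2500 genes, a wider glia gate, and leaving out shared or haemoglobin-rich barcodes and abundant gene classes. An equal weight of classes was also used. A sum over named neuron classes only and clusters at the same shares were chosen after seeing the data. The ratio intervals and the 2-fold rule were tested on simulated Poisson counts, and the clustering was not. A planned search of promoters for motifs was not run, since promoter sequences were not used here. Analyses ran in Python 3.11.15 (pandas 2.3.3, scikit-learn 1.9.0, leidenalg 0.10.2, igraph 0.11.9, scipy 1.17.1, matplotlib 3.10.9, numpy 2.4.6) and R 4.3.3. Results for some genes and 1 of the gene lists are not reported here.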

Additional observations from a re-analysis of the deposited data

Results flagged for a closer look

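The log2 ratio of clodronate over its control went in opposite directions, by at least 2-fold each way, in the undamaged and the NMDA-damaged pair for 4 of the 30 named genes. *IFI27L2* had −1.49 in clodronate+NMDA over NMDA and 3.43 in clodronate+saline over saline. *BF2* had −1.17 and 2.97, and *TAP2* had −1.09 and 2.91. *TBX5* went the other way round, with 1.13 in the NMDA pair and −2.21 in the undamaged pair. With 1 library per condition the difference between the pairs was not tested.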

How the results depend on the processing

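With at least 10 CPM in either library, 123 genes were 2-fold higher in clodronate+saline and 115 lower. At a minimum of 50 CPM these were 18 and 40, at 1 CPM 663 and 399, and at 1.5-fold in place of 2-fold 358 and 324. TMM and median-of-ratios scaling each gave 108 and 132 (45.0% higher, against 51.7%), moving the median of all genes by −0.06 and −0.07. Clusters taken at the same shares gave 110 and 80, of which 99 and 65 were among the 123 and 115, and an equal weight of named classes 178 and 113 (73 and 53 shared). Named neuron classes alone gave 115 and 115 (103 and 93 shared), and turned the MG gene median to −0.62 from 0.06 on the log2 scale. All 30 named genes stayed at least 2-fold apart in the same direction under the 11 alternatives run on them, but 22 moved beyond their counting interval with an equal weight of named classes, 11 with a mean over barcodes and 10 with named neuron classes alone: *S100A4* went to −2.32 (from −6.85), *TF* to −7.94 (−3.94) and *IFI6* to 2.86 to 6.42 (4.31). Of 26 list medians 12 changed sign in some setting, none of them the interferon-stimulated, class I, cone phototransduction, cholesterol or glycolysis lists. Of 122 single genes 5 changed sign. No paired analysis was possible because each group had 1 library. Rods had 100 and 79 barcodes, so their intervals are wide.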

Other observations

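The gene with the highest bound of all had no symbol. *ENSGALG00010002949* had 783 UMIs in clodronate+saline, against 0 in saline, and was found in 6.43% of clodronate+saline barcodes, against none of 9093 in saline.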
